A study of Mus musculus with 2 samples.

Results

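Immediate early genes are switched on within minutes of a stimulus without new protein synthesis, and in neurons they record recent activity. Here 10 of them were followed in embryonic mouse forebrain: the AP-1 genes Fos, Fosb, Jun and Junb, the zinc finger genes Egr1 and Egr3, the neuronal factor gene Npas4, the synaptic gene Arc, and the growth response genes Ier2 and Btg2. Members were found by symbol through their Ensembl identifiers, and all 10 of 10 were listed among 43346 genes. The tissue was whole forebrain of the B6NCrl mouse strain at embryonic day 16.5, described as healthy, with no treatment named and males and females combined. There is 1 group with 2 biological replicates, each a pool of embryos, and the pool of replicate 2 came from 41 embryos. Each library was made from 10 ng of total RNA above 200 nt plus spike-in RNAs. It follows that no second condition, age or tissue was compared.

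Growth factors and synaptic calcium reach these genes through the ERK kinases and serum response factor, and through CREB at cAMP response elements. FOS and JUN proteins pair through leucine zippers to form AP-1, which binds DNA and regulates later genes, while EGR proteins bind GC-rich sites through zinc fingers. The messages are short-lived, and AU-rich elements in their 3' UTRs help to speed their decay. In adult brain the genes serve as marks of recently active neurons. In embryonic forebrain Btg2 is also known from progenitors about to make neurons, and Jun from migrating and axon-growing neurons.

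The libraries held 31211128 and 26957198 expected counts (model-based read estimates) on genes. Levels are in TPM, a transcript abundance corrected for gene length and for the library's total. Neuronal and progenitor markers were expressed. In each library 12 of 12 pan-neuronal, 10 of 12 radial glia and 5 of 7 intermediate progenitor genes reached 10 TPM. Endothelial markers summed to 186 TPM in replicate 1 and 216 in replicate 2, and microglia markers to 78.5 and 106. Meningeal fibroblast markers summed to 230 and 497 TPM, with 8 of 9 reaching 1 TPM in each. Hypothalamic markers went the other way, at 47.3 and 14.9 TPM, with 4 of 9 reaching 1 TPM in each and Hcrt and Oxt listed at 0 in replicate 2. In bulk tissue, fewer cells of a type and less RNA per cell cannot be told apart.

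The 10 genes covered a wide range in the same tissue. In each library 8 reached 1 TPM, and 3 (Jun, Btg2 and Ier2) reached 10 TPM. Over all protein-coding genes the shares were 60.7% and 40.9%. Their median of 3.44 TPM lay beside a median of 5.05 TPM for protein-coding genes, and 4 members were above the protein-coding median in both libraries. Jun, Btg2 and Ier2 together held 88.2% of the members' summed 142 TPM in replicate 1 and 89.5% of 163 TPM in replicate 2. The genes best known as marks of neuronal firing, Fos, Fosb, Npas4, Egr1 and Arc, were all below 5 TPM.

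**Figure D1:**
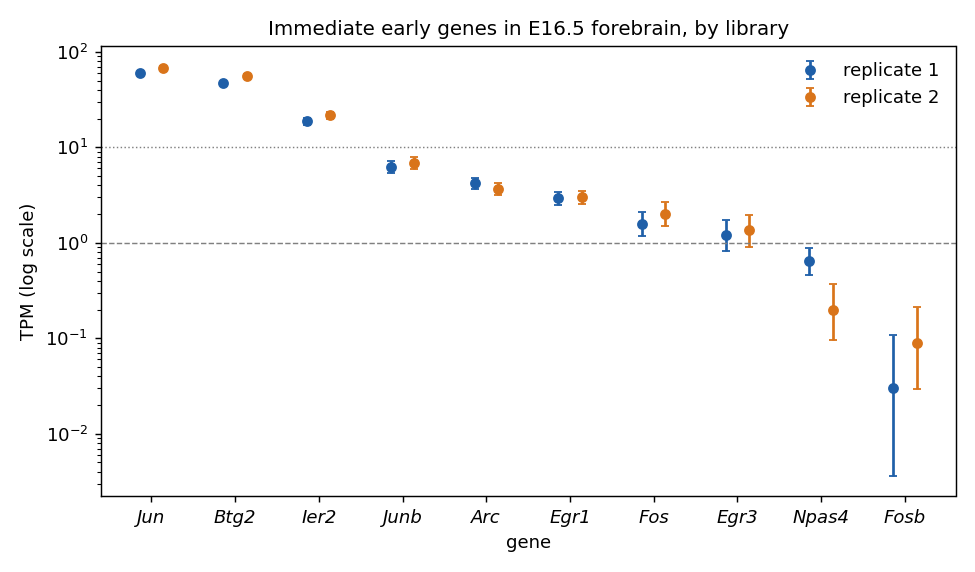
TPM on a log axis of each immediate early gene in replicate 1 (blue) and replicate 2 (orange). Bars are exact 95% Poisson intervals for counting error, and the lines mark 1 and 10 TPM. Jun, Btg2 and Ier2 sit above 10 TPM, and Npas4 and Fosb lie below 1 TPM in both libraries.

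Upstream sequences are shown for 2 members of high level, Btg2 and Jun, and for Fos, a low one. Of the marked elements, only the cAMP response core site TGACG is in both a high member (Btg2) and Fos. Jun shares a CCAAT box with Btg2 and no marked element with Fos. RefSeq promoters on GRCm38.p6 were found for 6 members (Fos, Fosb, Jun, Junb, Npas4 and Btg2). Each run gives the 250 bases before the RefSeq start, 5′ to 3′ on the gene's strand. Capitals mark cAMP response elements and their core sites, TATA boxes and CCAAT boxes on either strand.
Btg2 (chr1:134079156-134079405, minus strand): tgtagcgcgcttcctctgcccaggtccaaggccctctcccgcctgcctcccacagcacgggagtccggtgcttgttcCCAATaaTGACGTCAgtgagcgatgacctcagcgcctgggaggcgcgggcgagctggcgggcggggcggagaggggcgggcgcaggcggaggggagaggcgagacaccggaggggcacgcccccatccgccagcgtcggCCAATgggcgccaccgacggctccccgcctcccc
Jun (chr4:95052223-95052472, minus strand): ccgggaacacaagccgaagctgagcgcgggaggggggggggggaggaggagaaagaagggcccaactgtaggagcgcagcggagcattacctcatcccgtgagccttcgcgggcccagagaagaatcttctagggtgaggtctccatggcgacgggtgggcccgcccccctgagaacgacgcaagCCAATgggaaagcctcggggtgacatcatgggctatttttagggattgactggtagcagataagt
Fos (chr12:85473640-85473889, plus strand): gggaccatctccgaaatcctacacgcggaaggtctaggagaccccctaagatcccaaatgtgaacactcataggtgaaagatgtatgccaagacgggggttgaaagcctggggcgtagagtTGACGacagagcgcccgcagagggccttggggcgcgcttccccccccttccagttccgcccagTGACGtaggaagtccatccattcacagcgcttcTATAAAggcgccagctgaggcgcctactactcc
The stretch of Npas4 is shorter, since GENCODE M21 places an exon over the whole upstream window. It holds both core sites in 19 bases, at positions -181 to -163 from the RefSeq start.
Npas4 (chr19:4990134-4990152, minus strand): gaCGTCAcgggaTGACGtc

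The core site of the cAMP response element, TGACG on either strand, was in 5 of the 6 upstream windows, those of Fos, Fosb, Junb, Npas4 and Btg2. It is in 17.8% of 32851 RefSeq promoter windows of the same length. The full element TGACGTCA, which contains the core site on both strands, was in Btg2 alone of the 6, against 1.55% of all windows. Fos alone had the TATA box TATAAA, which 12.4% of windows have, 33 to 28 bases before the start. The GC box GGGCGG was in 5 windows (32.7% of all), and the CCAAT box in those of Jun, Junb and Btg2 (33.8% of all). The EGR site GCGNGGGCG, which overlaps a GC box where a G follows it, as in Fosb, was in Fosb and Btg2 (4.70% of all). Within 100 bases of the start the core site was in 2 of 6 (Fos and Fosb, 10.5% of all such windows), the full element in 0 (1.15%) and the EGR site in 1 (Fosb, 3.02%). No 250-base window held the AP-1 site TGANTCA (6.75% of all) or the CArG box bound by serum response factor (1.47% of all), which says only that these letters are not in these 250 bases. Btg2 at 51.4 TPM and Npas4 at 0.425 TPM both carried the cAMP response core site, and Jun, the highest member at 64.0 TPM, did not. Any relation of the site to level was not tested.

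Among the AP-1 genes, Jun was the most abundant and Fosb was barely detected. Jun (chromosome 4, 95049034 to 95052222), the DNA-binding partner common to most AP-1 dimers, was at 60.1 TPM in replicate 1 and 67.9 in replicate 2, or 64.0 ± 5.54 TPM (SD, n = 2). It ranked at the 85.9 and 87.2 percentiles of protein-coding genes. Junb (chromosome 8, 84974484 to 84978718), a partner often restraining the actions of Jun, was at 6.27 and 6.85 TPM. Jun exceeded Junb 9.58-fold in replicate 1 and 9.91-fold in replicate 2, a log2 ratio of 3.28 ± 0.03.

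Fos (chromosome 12, 85473890 to 85477273), the classical inducible partner of Jun, was at 1.59 and 2.02 TPM from 52 and 51 expected counts. Its level was far under that of Jun, on the log2 scale by a ratio of -5.24 in replicate 1 (-5.67 to -4.85, a 95% interval for counting error) and -5.07 (-5.50 to -4.67) in replicate 2. Fosb (chromosome 7, 19302696 to 19310051), a close relative of Fos, had 2 and 5 expected counts, at 0.03 and 0.09 TPM. Fos over Fosb was 5.73 (3.84 to 8.85) and 4.49 (3.22 to 6.22) on the log2 scale, wide intervals because so few reads fell on Fosb. Both FOS-type genes were therefore at low levels next to Jun in each pool.

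The 10 other AP-1 relatives were uneven too. Only 5 reached 1 TPM in each library and 3 reached 10 TPM, and their median was 1.20 TPM. Mafg, a small MAF protein, led at 33.1 ± 0.396 TPM, followed by Jund, the JUN gene least dependent on stimulation, at 22.4 ± 1.10 TPM. The lowest was Jdp2, a repressor that pairs with JUN proteins, at 0.280 ± 0.0283 TPM. Fosl2, chosen after its values were seen, was the highest FOS-type gene at 3.13 ± 0.184 TPM.

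Both EGR genes were near the middle or in the lower part of the expression range. Egr1 (chromosome 18, 34859823 to 34864984), a zinc finger factor of plasticity and growth responses, was at 2.91 and 2.99 TPM, the 45.3 and 45.5 percentiles. Egr3 (chromosome 14, 70077203 to 70082614), a related factor that acts downstream of similar signals, was at 1.21 and 1.35 TPM from 30 and 28 expected counts. Egr1 exceeded Egr3 by a log2 ratio of 1.21 ± 0.08. The authors' annotation lists 1 transcript of Egr3, whose 3' UTR is 50 bases in GENCODE M21, whereas a longer Egr3 model in M21, of 3940 bases, has 2645 bases of 3' UTR and is not in the files. How reads on that longer end would change the level of Egr3 was not tested.

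Of 7 related EGR, NR4A and NAB genes, 5 reached 1 TPM in each library, and the median was 3.59 TPM. Nr4a2, an orphan receptor needed for dopamine neurons and present in deep cortical cells, was at 22.8 ± 1.28 TPM and Nab1, a corepressor of EGR proteins, at 10.4 ± 0.891 TPM. Egr4, the lowest, was at 0.165 ± 0.106 TPM from 9 and 3 expected counts.

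Of the neuron-restricted genes, Npas4 stood low, at the 35.6 and 29.8 percentiles of protein-coding genes. Arc lay near the middle, at the 48.3 and 47.3 percentiles. Npas4 (chromosome 19, 4984355 to 4990316), a bHLH-PAS factor induced by calcium entry in neurons, was at 0.65 TPM in replicate 1 and 0.20 in replicate 2, from 39 and 10 expected counts, so the replicate 1 level was the higher. Its dimer partners were well expressed, Arnt2 at 54.9 ± 1.96 TPM and Arnt at 21.3 ± 0.382 TPM. Arc (chromosome 15, 74669083 to 74672570), which removes AMPA receptors from synapses and forms capsid-like particles, was at 4.18 and 3.67 TPM. Arc exceeded Npas4 by a log2 ratio of 3.44 ± 1.07, or 6.43-fold in replicate 1 and 18.4-fold in replicate 2, the least alike in the libraries of the 6 ratios examined.

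Genes that follow the first wave in active neurons were on the whole higher. Among 13 such effectors, 11 reached 1 TPM and 5 reached 10 TPM in each library, and the median was 7.72 TPM. Plk2, a kinase acting on dendritic spines, was at 189 ± 7.16 TPM and Nfil3, a bZIP repressor, at 52.9 ± 5.65 TPM. Ptgs2, the inducible cyclooxygenase, was the lowest, with 2 expected counts in each library.

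The growth response genes Btg2 and Ier2 were among the 3 highest. Btg2 (chromosome 1, 134075170 to 134079120), an antiproliferative protein that recruits the CCR4-NOT deadenylase, was at 46.6 TPM in replicate 1 and 56.3 in replicate 2, or 51.4 ± 6.82 TPM. Its relatives were of a like order, with Btg1 at 41.2 ± 6.77 TPM and Tob1 at 34.1 ± 6.94 TPM, while Btg4 had 0 and 1 expected counts. Ier2 (chromosome 8, 84661331 to 84662852), a nuclear protein induced by growth factors, was at 18.8 and 21.6 TPM, and lay below Btg2 by a log2 ratio of -1.35 ± 0.05. Among progenitor markers, those of intermediate progenitors summed to 390 and 436 TPM and those of radial glia to 1895 and 2379 TPM. The part of these cells in the level of Btg2 was not tested.

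General rapid response genes outside the 10 were all detected. Each of the 20 reached 1 TPM in each library, 8 reached 10 TPM, and the median was 8.44 TPM. Rgs2, a brake on G protein signalling, led at 63.8 ± 9.61 TPM, then Myc, a growth-promoting factor, at 39.1 ± 1.05 TPM. The lowest was Csrnp1 at 1.36 ± 0.0778 TPM.

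The order of the 10 levels was the same in both libraries: Jun, Btg2, Ier2, Junb, Arc, Egr1, Fos, Egr3, Npas4 and Fosb. For all 9 neighbouring pairs, the lower of the upper gene's 2 values exceeded the higher of the lower gene's. Counting intervals were apart in both libraries for 4 of these pairs, the ones from Jun down to Arc. Arc and Egr1, Egr1 and Fos, and Npas4 and Fosb overlapped in replicate 2, Egr3 and Npas4 in replicate 1, and Fos and Egr3 in both. The means of Jun and Btg2 were 12.6 TPM apart beside summed SDs of 12.4 TPM, and those of Npas4 and Fosb 0.365 TPM apart beside 0.361.

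The machinery upstream of these genes had higher median levels than the members. All 10 ERK pathway genes reached 1 TPM in each library, and their median was 63.7 TPM. Araf, a RAF kinase, was at 222 ± 33.9 TPM, Map2k2, which phosphorylates ERK, at 176 ± 3.12 TPM and Rps6ka3, an ERK-activated kinase that targets CREB, at 3.43 ± 0.509 TPM. All 5 JNK pathway genes, whose kinases phosphorylate JUN, exceeded 10 TPM, from Map2k4 at 75.5 ± 0.629 and Mapk10 at 58.9 ± 3.97 to Map2k7 at 20.9 ± 1.46 TPM. Among 12 CREB and MEF2 genes, 11 exceeded 10 TPM, led by Mef2c at 125 ± 22.9 and Creb1 at 46.5 ± 6.48 TPM, and only Mef2b, at 0.480 ± 0.283 TPM, was below 1 TPM. All 6 genes of the serum response factor group reached 1 TPM. Its ternary complex partner Elk1 was at 21.6 ± 1.65 TPM and its actin-regulated cofactor Mrtfa at 20.9 ± 3.40 TPM, and Srf itself was the lowest at 2.31 ± 0.255 TPM.

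Genes of ERK feedback, and of decay or stabilisation of AU-rich messages, were also expressed. All 8 ERK feedback genes reached 1 TPM, with the phosphatases Dusp4 at 57.0 ± 2.73 TPM and Dusp6 at 33.2 ± 4.18 TPM highest and Dusp5 at 2.66 ± 0.841 TPM lowest. All 13 genes for AU-rich element binding and deadenylation were detected, and 12 exceeded 10 TPM, with a median of 59.6 TPM. The neuronal stabilising protein gene Elavl4 was at 211 ± 5.41 TPM and Cnot7, the deadenylase that BTG proteins bind, at 210 ± 20.7 TPM. Zfp36l2, a decay factor for AU-rich messages, was the lowest at 3.22 ± 0.544 TPM.

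**Figure D2:**
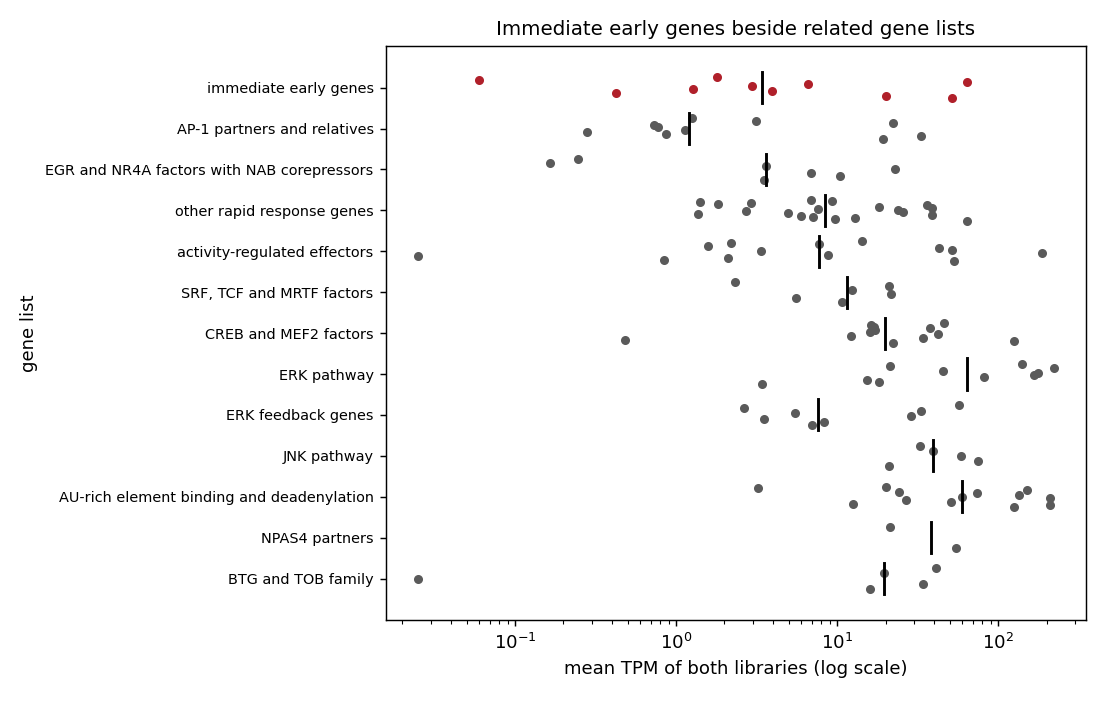
Mean TPM of both libraries on a log axis for each gene (points) of 13 lists, with the immediate early genes in red and the list median as a vertical bar. The median of the immediate early genes is 3.44 TPM, and the ERK pathway has a median of 63.7 TPM.

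No member passed the rule for a difference between the pools. Calls needed 50 or more counts on average, a 2-fold or larger ratio and an exact 95% counting interval that left out equality. That rule called 1.40% of 13929 genes, 1.03% as lower and 0.366% as higher in replicate 2, and 0 of the 7 members with enough counts. Scaled to the spike-ins, it called 3.85% of these genes, 0.151% as lower and 3.70% as higher, and again none of the 7 members. With 1 library per pool this is no test between conditions and gives no p-value. Log2 ratios of these 7 members ran from -0.21 to 0.24, with a median of 0.15, beside a median of 0.001 over all genes compared. Of the 7, 6 had ratios above 0 and 1 below, where 50.2% of all genes compared were above 0. Their median size of 0.18, sign aside, lay beside 0.14 for all genes.

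The largest ratio of these 7 belonged to Btg2, at 0.24 (0.16 to 0.33), followed by Fos at 0.20 (-0.39 to 0.78) and Ier2 at 0.18 (-0.01 to 0.36). Jun had 0.15 (0.08 to 0.22), so the interval excluded equality for Btg2 and Jun, both at less than 2-fold. These are the 2 members with the most counts, where counting intervals are narrowest. Between the libraries, the common coefficient of variation (SD over mean) of genes was 12.3%, a spread the intervals do not cover. The share of all genes with an interval excluding equality was not computed. Arc was the only member of the 7 below 0, at -0.21 (-0.51 to 0.08), and its ratio became 0.35 under spike-in scaling, which moves every gene by 0.56. Progenitor markers were also above 0, with medians of 0.30 for intermediate progenitor genes (6 of 7 above 0) and 0.26 for cell cycle genes (12 of 12). Radial glia genes had a median of 0.29 (11 of 11). The related BTG and TOB genes had a median of 0.30, with 4 of 4 compared genes above 0. Microglia markers had a median of 0.34 (9 of 9 above 0), endothelial markers 0.23 (9 of 9) and meningeal fibroblast markers 0.79 (8 of 9). Erythroid markers had 0.33 (7 of 7) and glutamatergic neuron markers 0.27 (6 of 7). Medians were below 0 for pan-neuronal, GABAergic neuron, oligodendrocyte and hypothalamic markers, at -0.27, -0.12, -0.36 and -2.18. The part of these cells in the members' ratios was not tested.

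Of the 3 members with a mean below 50 counts, Npas4 differed by the most. Its 39 counts in replicate 1 and 10 in replicate 2 gave a log2 ratio of -1.69 (-2.91 to -0.71). At a count minimum of 20 it was called, as were 3.01% of 15685 genes, 2.17% as lower and 0.835% as higher in replicate 2. It remained below 0 under spike-in scaling, at -1.12. Egr3 had 0.13 (-0.67 to 0.92) and Fosb 1.36 (-1.06 to 4.94), so no difference was detectable at this depth.

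**Figure D3:**
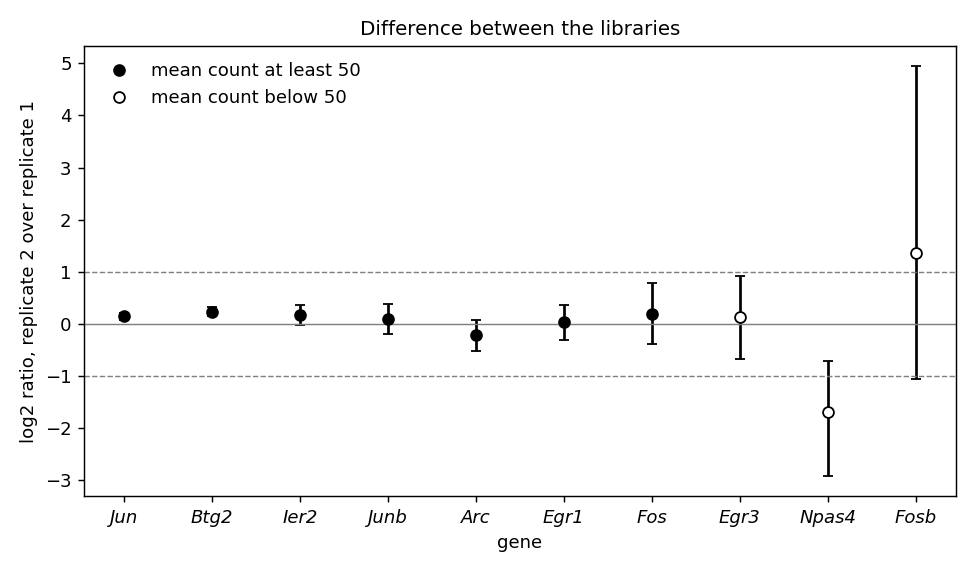
Log2 ratio of replicate 2 over replicate 1 for each immediate early gene, with exact 95% counting intervals; filled points have a mean count of at least 50. Only the interval of Npas4 lies wholly below 0, and dashed lines mark 2-fold.

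Calls among the related genes were few and depended on the scaling. Of 99 with enough counts, 2 (2.02%) were called, both lower in replicate 2 and both activity-regulated effectors, beside 1.40% of all genes called and 1.03% called lower. Scg2, a granin of secretory vesicles, was at 69.2 and 33.9 TPM in the first and second library, with a log2 ratio of -1.06 (-1.16 to -0.96). Nptx2, a pentraxin that clusters AMPA receptors, was at 2.13 and 1.04 TPM, also -1.06 (-1.64 to -0.52). Under spike-in scaling neither was called, at -0.50 for Scg2 and -0.49 for Nptx2. The calls were then 4 (4.04%), all higher in replicate 2, beside 3.85% of all genes called and 3.70% called higher under this scaling. They were Ier3 at 1.20, Klf4 at 1.17, Ccn2 at 1.15 and Spred1 at 1.03, genes named after their values were seen. The 11 effectors compared had a median of -0.18, with 6 below 0, which became 0.38 under spike-in scaling. Pcsk1, a peptide-processing protease chosen after its values were seen, had -0.99 (-1.47 to -0.54). Beside these, 6 of 6 compared hypothalamic markers were below 0 and 5 were called lower, with a median of -2.18, or -1.62 under spike-in scaling. The summed hypothalamic level was 47.3 TPM in replicate 1 and 14.9 in replicate 2. Pan-neuronal markers had a median of -0.27 with 9 of 12 below 0, which became 0.29 under spike-in scaling. Glutamatergic neuron markers went the other way, with a median of 0.27 and 6 of 7 above 0, or 0.83 under spike-in scaling. The part of hypothalamic tissue in the values of Npas4, Scg2 and Nptx2 was not tested.

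The files assign each gene's reads to annotated transcripts. For 7 of the 10 members a single transcript was listed, so their gene and transcript values are the same. The protein-coding transcript Fos-201 took 82.1% of Fos TPM in replicate 1 and 71.2% in replicate 2, or 49.2 and 45.6 of the 52 and 51 counts. By posterior mean its share was 65.1% and 55.6%. Short noncoding Fos transcripts took the remaining TPM from few reads. One of 631 bases held 17.9% and 18.0% on 2.84 and 3.05 counts, and one of 795 bases held 0% and 10.8%. For Egr1, 1 of the listed transcripts carried 97.7% and 94.8%. Arc divided between forms of 3054 bases, at 75.3% and 100%, and 3055 bases, at 24.7% and 0%. Both encode 396 codons and differ little in length, so their division is uncertain.

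For Fosb the files list only Fosb-201, of 338 codons. GENCODE M21 adds Fosb-206, of 237 codons, matching the truncated form known as delta-FosB that accumulates after repeated stimulation. It was not quantified here, and with 2 and 5 counts on the gene no division could have been read.

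Compactness was common to the members. In the leading transcript of each gene, members with a 3' UTR of at least 100 bases (9 of 10, without Egr3) spanned a median of 3488 bases of genome and had a median of 3 exons. Medians over 18015 protein-coding genes were 19059 bases and 8 exons. All 9 spanned under 8000 bases, as did 26.7% of all genes, and 8 had 4 exons or fewer, as did 28.2%. Neither bound was set in advance, and 8000 lies just above the widest of the 9, Fosb at 7356 bases. Jun, Junb and Ier2 are single-exon genes, and Npas4 has 8 exons. Messages themselves were not short, at a median of 3036 bases beside 2656, since the 3' UTR was a median of 1188 bases beside 857.

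AU-rich pentamers, ATTTA, were uneven among the 3' UTRs. At least 1 was present in 7 of the 9, against 64.2% of all genes, and 3 of the 9 had a density of at least 3 per kilobase, against 21.5%. Fos had 4 in 815 bases, a density of 4.91 per kilobase at the 92.1 percentile, and was the only member with the longer TTATTTATT, which 7.01% of genes have. Junb had 4.12 per kilobase, Jun 3.24 and Btg2 2.27, while Arc and Ier2 had 0. Sites of Fos, Jun and Btg2 are shown, each the 30 bases around the densest pentamers, because these messages differ in level while each holds at least 4 pentamers. Capitals mark ATTTA, and coordinates are on GRCm38.
Fos (chr12:85477101-85477130, plus strand): tgtgttttcaATTTATTTAttaagatggat
Jun (chr4:95049207-95049236, minus strand): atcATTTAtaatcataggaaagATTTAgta
Btg2 (chr1:134076017-134076046, minus strand): aATTTAtttgtagatgtgtgcaatATTTAc
In Fos the pentamers overlap by a base, and in Jun and Btg2 they lie apart. Fos at 1.81 TPM and Jun at 64.0 TPM both lay above the median density of all genes, 1.20 per kilobase. Any relation of pentamer density to level was not tested.

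**Figure D4:**
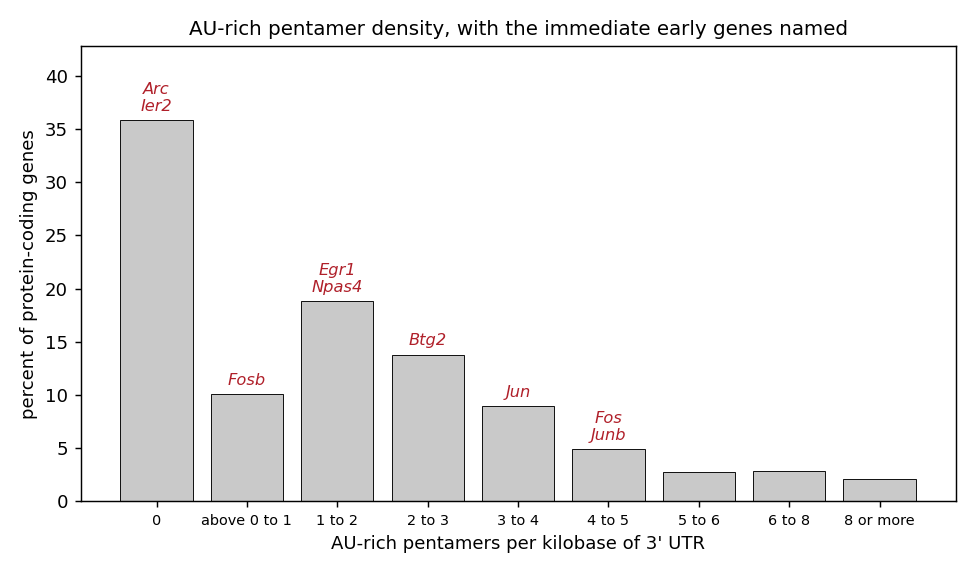
Percent of 18015 protein-coding genes (bars) in each class of AU-rich pentamers per kilobase of 3' UTR, with the names of the 9 immediate early genes written over their class. Arc and Ier2 fall in the class with 0, and Fos and Junb in the class from 4 to 5.

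Neighbouring genes touch 2 of the members. The antisense gene Junos overlaps Jun by 689 bases on the opposite strand and was at 1.08 and 1.25 TPM. Prdx2, at 1155 and 1085 TPM, overlaps the annotated span of Junb by 351 bases at the far end, where M21 places a further Junb transcript, which the files do not list. Whether the counting used strand is not given in the sources used here, so reads within the overlap of Jun and Junos cannot be told apart.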

How the data were processed

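Total RNA from 2 pools of E16.5 forebrain was measured, with 1 gene and 1 transcript table per library. The mm10 assembly and the GENCODE M4 annotation are named in the notes that came with the libraries, while aligner and counter are not given there. The authors deposited expected counts without normalization, TPM scaled to a fixed sum with spike-ins inside, FPKM, and each transcript's percent of its gene, per the file headers. Symbols and coordinates came from GENCODE M21 (GRCm38, the assembly of mm10), which matched 42462 of 43346 genes.

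Expected counts were rounded for edgeR 4.0.16 TMM scaling in R 4.3.3, computed on genes averaging 50 counts or more. Ratios used a prior count of 0.5 and exact 95% Clopper-Pearson intervals, and levels exact Poisson intervals. Both cover counting error only. Other steps used Python 3.11.15. The ratio step was tested on simulated counts that held counting error only, so that test does not cover the further spread between the libraries. Motifs were searched in RefSeq promoters and pentamers in M21 transcripts. The text names all members, and of each related list the 2 highest genes, the lowest and those called. The 10 members and all gene lists were chosen with earlier results of these data known. Alternatives covered units, posterior means, scaling (DESeq2 1.42.0 size factors, total counts, spike-ins), minimums, prior count and promoter window.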

Additional observations from a re-analysis of the deposited data

How the results depend on the processing

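Counts of members at 1 and 10 TPM stayed within 1.5 times under FPKM, posterior means, spike-in removal and other minimums. The members' median was 2.00 in FPKM and 3.62 TPM without spike-ins, and ran from 3.33 to 3.54 with a replicate left out. At a count minimum of 20, or with none, 1 member (Npas4) was called in place of 0. The calls over all genes, 195 (1.40%), became 472 (3.01%) and 1096 at these minimums, 40 at 200 counts and 536 (3.85%) under spike-in scaling. Shares of all genes at 200 counts and with no minimum were not computed. Spike-in scaling gave a members' median log2 ratio of 0.71. Among related genes it lost both lower calls and made 4 others (4.04%), all higher in replicate 2, as were 3.70% of all genes. Within 100 bases upstream, 2 windows held the cAMP core site, 0 the full element and 1 the EGR site. Of single values, 158 moved by less than their error or not at all and 26 by more, and no ratio between members changed sign. Many of the 158 could not have moved by more. Leaving a replicate out cannot shift a mean of both libraries by more than its SD, and a count minimum changes no single ratio. No paired analysis was possible because there is only 1 group. Depth limits Fosb, Npas4, Egr3 and Fos, with 52 counts or fewer per library.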
